A study of Rattus norvegicus with 56 samples.

Results

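The measurements below concern 7 rat genes tied to Alzheimer disease: App, Aplp1, Bace1, Psen2, Apoe, Clu and Mapt. They were chosen by name, and their probes were found as those whose RefSeq accession on the array belongs to the gene, which gave 9 probes: 2 for App, 2 for Mapt and 1 for each other gene. They are 7 of 16581 genes with a symbol on the array, of which 13884 had a probe that was tested. The cells were hippocampal neurons prepared from Sprague Dawley rat embryos at day E18 and kept in culture, and RNA was read on 1-colour Agilent arrays after repetitive transcranial magnetic stimulation (rTMS), in which a coil held under the dish delivers magnetic pulses. Dishes received 1 Hz stimulation, intermittent theta burst stimulation (iTBS) or a sham procedure, for which the dish stood away from the coil, and were collected 0, 2, 8, 24 or 48 h later, and untreated dishes (CTR) were collected at 0 h only. This made 16 groups of 3 or 4 arrays, 56 in all, of which 55 were used: replicate 2 of 1 Hz at 2 h had failed the scanner's grid check and was left out, so that group had 2 arrays. The untreated dishes had 4 arrays, as did 3 of the iTBS groups (0, 2 and 48 h), 2 of the 1 Hz groups (8 and 48 h) and 2 of the sham groups (0 and 2 h), and every other group had 3. Nothing in the labels says that the replicates came from separate animals or dissections, so the p-values measure only the spread between these arrays.

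App encodes the amyloid precursor protein, and Aplp1 a related membrane protein of neurons. Bace1 encodes the beta-secretase that makes the first cut toward the amyloid beta peptide, and Psen2 encodes presenilin 2, a catalytic subunit of the gamma-secretase that makes the last cut. Apoe and Clu encode the lipid-carrying proteins apolipoprotein E and clusterin, which in brain are released largely by astrocytes and can bind amyloid beta. Mapt encodes tau, which binds axonal microtubules and forms tangles in Alzheimer disease.

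Promoter sequences of 5 of the 7 genes were held in the RefSeq table of the rat build GRCr8, which covers 250 bases before to 50 bases after each start site. The promoters of App, Bace1 and Psen2 are shown because these genes encode the precursor and its cutting enzymes, and Bace1 and Psen2 moved in opposite directions with time. Each is printed 5′ to 3′ on the gene's own strand. Capitals mark the GC box motif, searched as GGGCGG and, for the other strand, CCGCCC.
App, chr11:37722789-37723088, minus strand: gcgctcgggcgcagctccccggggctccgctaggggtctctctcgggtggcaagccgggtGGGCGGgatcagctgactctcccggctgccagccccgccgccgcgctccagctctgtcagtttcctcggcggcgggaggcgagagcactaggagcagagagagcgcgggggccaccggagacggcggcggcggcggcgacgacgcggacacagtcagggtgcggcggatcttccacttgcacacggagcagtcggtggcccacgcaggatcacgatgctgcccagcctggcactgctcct
Bace1, chr8:55038592-55038891, plus strand: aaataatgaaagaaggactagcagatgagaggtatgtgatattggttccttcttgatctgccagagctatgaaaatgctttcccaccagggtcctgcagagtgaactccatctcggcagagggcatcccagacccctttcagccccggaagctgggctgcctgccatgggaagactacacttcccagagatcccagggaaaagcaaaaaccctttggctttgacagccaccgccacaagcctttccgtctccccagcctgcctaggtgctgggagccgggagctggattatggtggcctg
Psen2, chr13:94516526-94516825, minus strand: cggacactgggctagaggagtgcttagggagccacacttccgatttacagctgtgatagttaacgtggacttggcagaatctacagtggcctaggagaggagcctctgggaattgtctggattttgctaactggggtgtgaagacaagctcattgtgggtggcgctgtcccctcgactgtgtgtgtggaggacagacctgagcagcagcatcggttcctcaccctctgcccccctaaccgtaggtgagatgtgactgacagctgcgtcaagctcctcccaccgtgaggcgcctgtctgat
The App window held 1 such motif and was 72.7% G and C. The windows of Bace1 and Psen2 held 0, which says only that these letters are not in these windows. Of all 33469 promoters in the table, 33.1% held the motif, as did 4 of the 7 windows of the 5 member genes, those not shown included.

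All 9 probes were well above background on 55 of 55 arrays, so every level below was measured rather than bounded. Levels are scaled log2 signals, on which the mean of each array is 0 and all arrays have the same spread, and a level says nothing of a gene's amount against another gene's. The raw fluorescence of the brighter App probe (A_44_P1110778) ran from 24022 to 200951 and that of Apoe (A_44_P171440) from 103224 to 351803. Bace1 (A_44_P127467) was the dimmest member, at 44.0 to 280.4 with a median of 123. Between 66.1% and 81.8% of probes were well above background on an array, and 0 spots were saturated. The 75th percentile of the signal lay between 1896 and 18416.

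The description of each sample carries a running number, and these numbers fall into 4 ranges, called here culture series A, B, C and D with 11, 12, 17 and 15 arrays. The labels do not say what the number marks, so it is not known whether the ranges are separate cultures. Each range runs across most arms and times, so a stimulated array can be set beside the sham array of its own series and time. Series A, B and C lay on slides of their own and series D was spread over all 7 slides. The neuronal marker Rbfox3, the astrocyte marker Gfap and the oligodendrocyte marker Mbp were well above background on every array, while the microglial marker Aif1 was so on 10 of 11 arrays of series A and 15 of 15 of series D but on 0 of 12 and 0 of 17 of series B and C, where 5 of the 7 microglial markers on the array were still above background on at least 1 array.

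**Figure D1:**
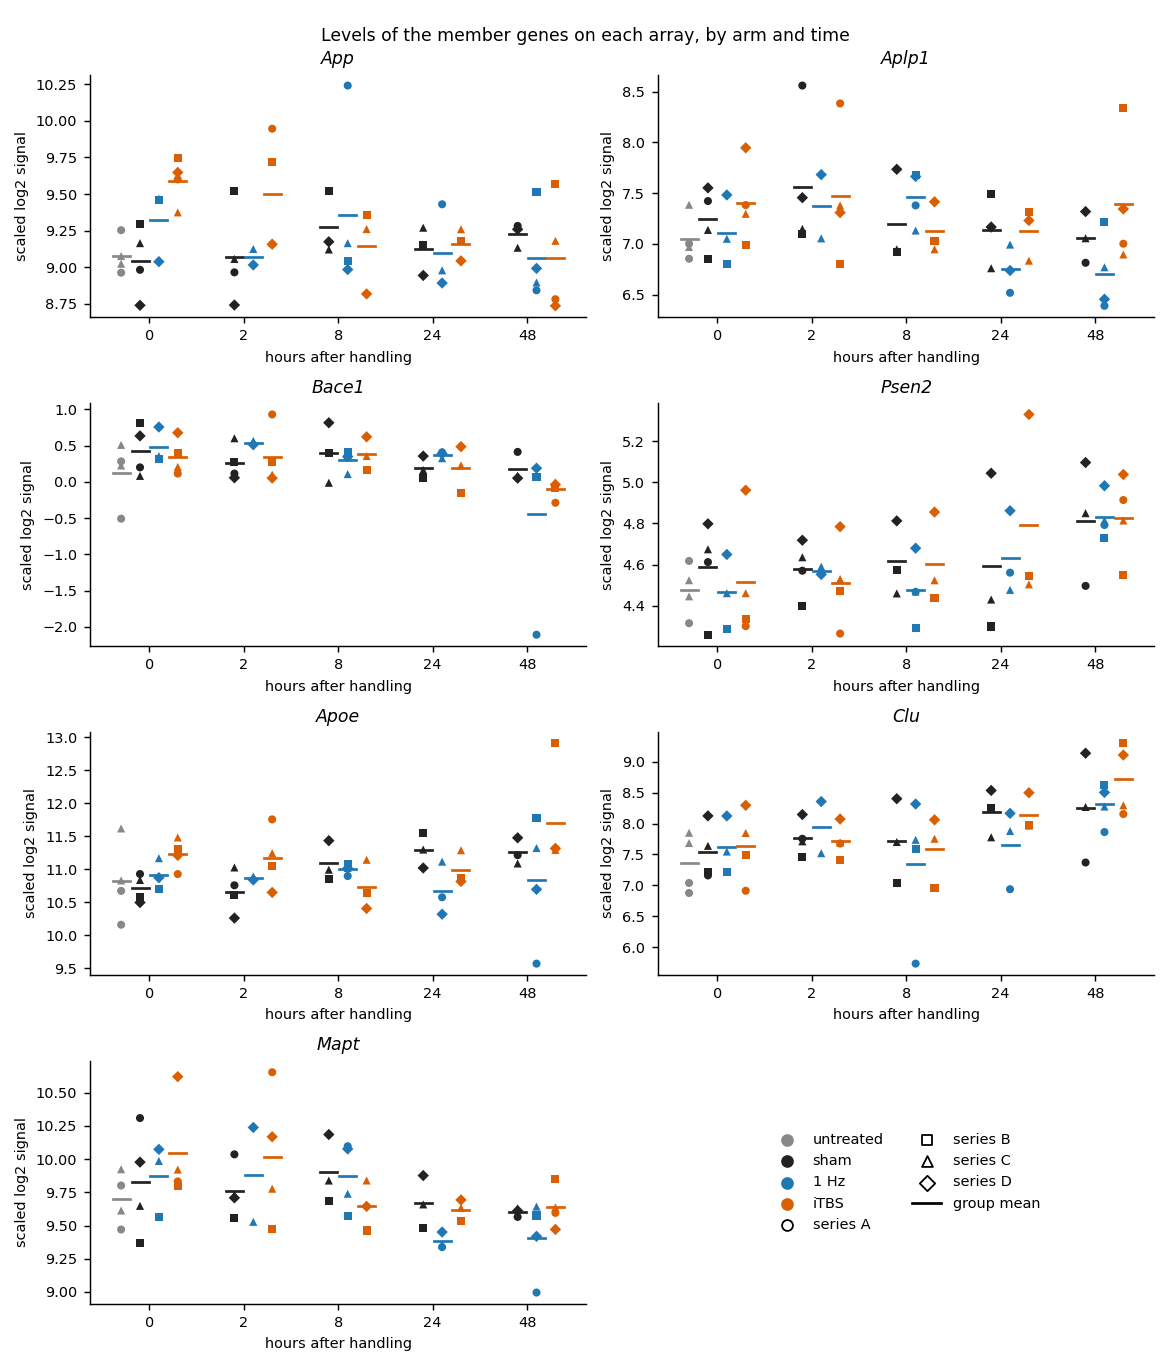
Scaled log2 signal of the brightest probe of each of the 7 genes on the 55 arrays, against hours after handling (times evenly spaced). Colours are arms, symbols are culture series and bars are group means. The arms overlap at most times, Clu and Psen2 lie higher at 48 h than at 0 h, and series D lies highest for Psen2 in most groups.

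The first comparison asked whether stimulation changed the level of these genes against sham at the same time. None of the 7 genes passed: of 70 tests (7 genes, 2 protocols, 5 times), 0 reached an adjusted p of 0.05 in limma, and a single test fell below 0.05 before adjustment. Of all probes, 0% were called in 7 of these 10 comparisons, 0.00560% for 1 Hz at 2 h and for iTBS at 8 h, and 0.00280% for 1 Hz at 8 h. Log2 differences ran from -0.63 to 0.55, with standard errors (SE) of 0.18 to 0.49 and a median SE of 0.31. Averaged over the 5 times, 0 of 14 tests passed before or after adjustment, with 0% of all probes called, and the differences lay between -0.16 and 0.16. For App the 95% interval of the average iTBS difference was -0.07 to 0.36, for Psen2 -0.16 to 0.19, and for Clu under 1 Hz -0.52 to 0.29. These averages had a median SE of 0.14, and of 0.076 in the fit with a term for each series at each time, described next. For Clu, the mean at 48 h was 8.26 ± 0.88 (SD, n = 3) after sham, 8.32 ± 0.34 (n = 4) after 1 Hz and 8.71 ± 0.57 (n = 4) after iTBS. For Apoe the same means were 11.26 ± 0.20, 10.84 ± 0.96 and 11.71 ± 0.80, and for Psen2 4.81 ± 0.30, 4.83 ± 0.11 and 4.83 ± 0.21. The arms overlapped for all 3 genes at that time. Sham at 48 h had no array of series B, so these means cover unlike sets of series. In the 3 series with sham, iTBS minus sham averaged 0.26 for Clu, 0.05 for Apoe and 0.11 for Psen2.

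Setting each stimulated array beside the sham array of its own series and time gave 13 pairs for 1 Hz and 17 for iTBS. After iTBS, on the brightest probe of each gene, App was higher in 12 of 17 pairs, Aplp1, Apoe, Mapt and Psen2 in 10, Clu in 7 and Bace1 in 6. The second probe was higher in 8 of 17 pairs for App and in 9 for Mapt. With levels divided by the 75th percentile, App was higher in 11, Apoe and Psen2 in 10, Aplp1 and Bace1 in 9, and Clu and Mapt in 8. After 1 Hz, Bace1 was higher in 8 of 13 pairs, Apoe in 7, App and Clu in 6, Mapt in 5, and Aplp1 and Psen2 in 4. A fit with a term for each series at each time, which removes what arrays of a series share, called 0 of 70 tests with 9 at an unadjusted p under 0.05, and 0 of 14 averages. Of all probes, that fit called 0.0308% for iTBS at 0 h, 0.00560% for iTBS at 8 h, 0.00280% for 1 Hz at 8 h and 0% in each other comparison with sham.

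The difference nearest to the threshold was App directly after iTBS. On its brighter probe the 4 sham arrays at 0 h read 8.98 in series A, 9.30 in B, 9.17 in C and 8.74 in D. The iTBS arrays read 9.60, 9.75, 9.38 and 9.65 in the same order, so all 4 iTBS arrays lay above all 4 sham arrays. The log2 difference was 0.55 (SE 0.22, adjusted p = 1.00 in limma), and with a term for each series at each time it kept its size at an SE of 0.13 and an adjusted p of 0.0579. At 2 h iTBS was also higher in 4 of 4 series, by 0.11 to 0.98, with a log2 difference of 0.43 (adjusted p = 0.381 in the fit by series and time). The size of this difference depended on the scaling, as given below. The second App probe (A_64_P010658) differed by -0.41, 0.04, 0.16 and 0.19 in series A to D at 0 h, a fitted difference of -0.00. At 2 h it was higher in 1 of 4 series, with differences of -0.07 to 0.27. After 1 Hz the brighter probe was above sham by 0.16 to 0.30 in 3 of 3 pairs at 0 h. It differed by -0.44 to -0.24 in 3 of 3 pairs at 48 h, and neither time passed. The 48 h difference changed sign under some of the settings given below, so no direction is given for it.

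Before scaling, the brighter App probe was lower after iTBS than after sham in 3 of the 4 series at 0 h: it read 55626 against 87598 in B, 53757 against 85833 in C and 50995 against 67326 in D, and 64825 against 44508 in A. At 2 h it was lower in all 4, at 33087 against 75458 in A and 69617 against 128219 in B. In C it then read 52914 against 60500 and in D 80363 against 105377. The spread (SD) of log2 signals over an array was 3.76 to 4.00 on the 4 iTBS arrays and 4.11 to 4.17 on the 4 sham arrays at 0 h, and all arrays were set to the same spread. With each array divided by its 75th percentile instead, the difference after iTBS at 0 h was 0.27 (adjusted p = 0.314), after quantile normalization 0.15 (0.742) and after normexp background correction 0.02 (0.975). In the same order, the difference after iTBS at 2 h was 0.20 (adjusted p = 0.693), 0.06 (0.904) and 0.0009 (0.999). That after 1 Hz at 48 h was -0.21 (adjusted p = 0.452), 0.02 (0.971) and 0.06 (0.905). Over the 55 arrays, deviations of App from its series means had r = -0.67 with the array's spread and r = -0.22 when levels were divided by the 75th percentile, given as a description. Whether the spread of the arrays has a part in these App differences was not tested further. For iTBS at 0 h, leaving out 1 array at a time moved the adjusted p of App between 0.0290 and 0.249. It was under 0.05 without 7 of the 55: replicate 2 of iTBS at 0 h, replicate 3 of iTBS at 2 h and at 8 h, replicates 2 and 3 of sham at 2 h, replicate 1 of sham at 48 h and replicate 1 of 1 Hz at 48 h.

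**Figure D2:**
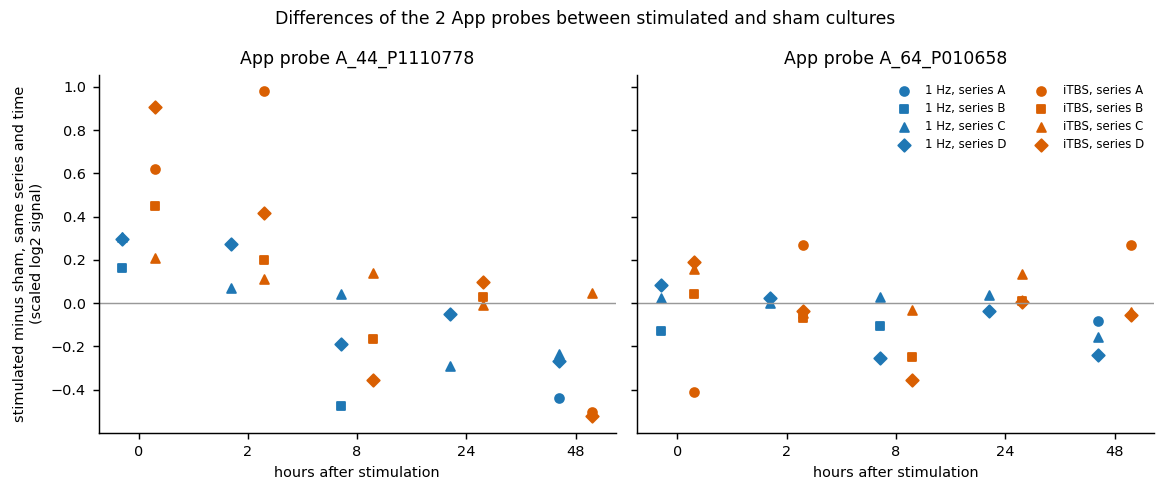
Difference of each stimulated array from the sham array of its own series and time, in scaled log2 signal, for both App probes, against hours after stimulation (times evenly spaced). All 4 iTBS points of the brighter probe lie above 0 at 0 h and at 2 h, while those of the second probe run from -0.41 to 0.19 at 0 h and from -0.07 to 0.27 at 2 h.

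Apoe had the next differences after iTBS, 0.52 at 0 h and 0.51 at 2 h in the fit by series and time (adjusted p = 0.281 and 0.426). These turned to -0.24 and -0.27 after quantile normalization, so no direction is given. At 48 h after 1 Hz, Aplp1 was lower than sham by 0.60 in that fit (log2 difference -0.60, adjusted p = 0.157) and Apoe had -0.77 (adjusted p = 0.215). The Aplp1 difference was -0.77 with an adjusted p of 0.0422 without replicate 3 of 1 Hz at 48 h, and the Apoe difference was -0.03 after quantile normalization. Aplp1 levels at 48 h averaged 6.71 ± 0.38 (n = 4) after 1 Hz, 7.06 ± 0.25 (n = 3) after sham and 7.40 ± 0.66 (n = 4) after iTBS, and the ranges overlapped. Sham at 48 h had no array of series B, where Aplp1 read 8.34 after iTBS. In the 3 series with sham, the mean difference from sham was 0.02 after iTBS and -0.52 after 1 Hz.

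The protocols were also set against each other, and sham dishes against untreated dishes. Of 42 tests of 1 Hz against iTBS (7 genes, 5 times and their average), 0 passed, and before adjustment 2 fell below 0.05. Of all probes, 0.00560% were called at 2 h, 0.00280% at 8 h and 0% at the other times and for the average. With a term for each series at each time, the differences at 48 h that came nearest were Aplp1 at -0.69 (adjusted p = 0.103) and Apoe at -0.87 (adjusted p = 0.126). The 75th percentile of signal was 18416 on the 1 Hz array of series A and 1999 on the iTBS array of series B. Over all arrays, deviations from series means had r = -0.59 (Aplp1) and -0.78 (Apoe) with its log2. The part of array brightness in these differences was not tested. Between untreated and sham dishes at 0 h, 0 of 7 genes passed before or after adjustment, and differences ran from -0.30 to 0.11, where 0.00280% of all probes were called, or 0.177% with a term for series.

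The culture series differed for 4 of the 7 genes, in a joint test over the 4 series that 75.4% of all probes passed. Clu (adjusted p = 5.84e-08), Psen2 (2.29e-07), App (0.00297) and Mapt (0.0165) passed, and Apoe (0.0667), Bace1 (0.221) and Aplp1 (0.252) did not. Clu rose from series A to D, with means of 7.22 ± 0.66 (SD, n = 11), 7.71 ± 0.70 (n = 12), 7.83 ± 0.24 (n = 17) and 8.39 ± 0.34 (n = 15). Clu was higher in D than in the other series by 0.81 (SE 0.11, adjusted p = 6.75e-08), higher in C than in A and B by 0.40 (SE 0.11, 0.00473), and lower in A than in B by 0.55 (log2 difference -0.55, SE 0.16, 0.00807). Over all probes, 28.9% were called higher and 24.2% lower in D, 20.3% and 19.8% in C against A and B, and 16.7% and 13.7% in A against B. Psen2 stood at 4.54 ± 0.20, 4.43 ± 0.15, 4.57 ± 0.14 and 4.88 ± 0.20 in A to D, and was 0.37 higher in D (SE 0.05, adjusted p = 4.87e-08), while its differences among A, B and C did not pass. In the sham and untreated arrays alone, Clu and Psen2 passed the joint test and App and Mapt did not, and the difference of Clu between C and the pair of A and B was 0.42 (adjusted p = 0.0612). With the slide as a block, the Clu differences among A, B and C were 0.49 (adjusted p = 0.132) and -0.33 (0.712) and no longer passed.

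The series also set the 2 probes of App and of Mapt apart. App was lower in D on the brighter probe by 0.30 (log2 difference -0.30, SE 0.08, adjusted p = 0.00207), a difference that was -0.09 after quantile normalization and no longer passed. Its second probe stood out in other series, higher in A than in B by 0.28 (adjusted p = 0.0109, lost at 0.39 with the slide as a block, adjusted p = 0.378, and at 0.30 in the sham and untreated arrays alone, 0.252) and lower in C than in A and B by 0.33 (log2 difference -0.33, adjusted p = 5.5e-05). On the brighter Mapt probe (A_64_P034774) the means of A to D were 9.79 ± 0.47, 9.58 ± 0.14, 9.71 ± 0.16 and 9.88 ± 0.35, and D was 0.19 higher (SE 0.08, adjusted p = 0.0486), a call that was lost without any of 38 of the 55 arrays. On the second Mapt probe (A_44_P1082034) D was lower by 0.55 (log2 difference -0.55, SE 0.10, adjusted p = 2.16e-05), so no direction is given for Mapt across series. The brighter probe minus the second was 0.11 ± 0.47 in A, -0.06 ± 0.15 in B, 0.09 ± 0.14 in C and 0.77 ± 0.33 in D. Over the 55 arrays, deviations of the 2 probes from their series means had r = 0.67 for Mapt and r = 0.31 for App, and 0.48 and 0.14 with levels divided by the 75th percentile.

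**Figure D3:**
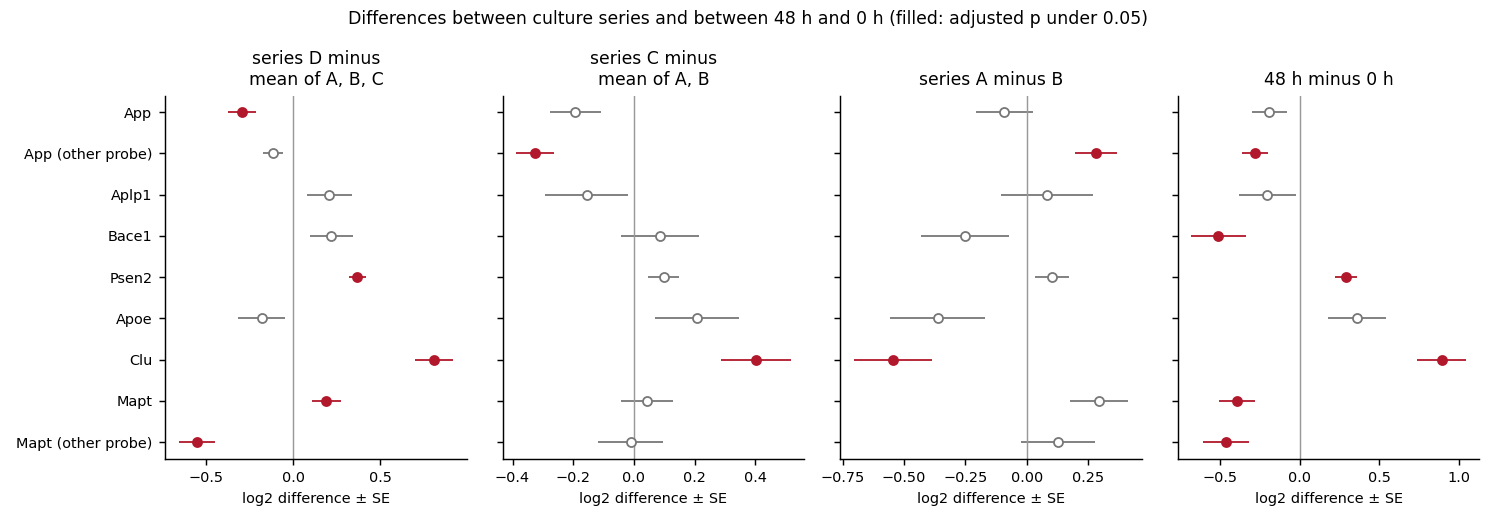
Log2 differences of the 9 probes (points) with 1 SE on either side, between culture series and between 48 h and 0 h, with filled points for an adjusted p under 0.05. Clu and Psen2 lie above 0 for series D and for 48 h, and the Mapt probes lie on opposite sides of 0 for series D and on the same side for 48 h.

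Markers of other cells moved with the series too, where 28.9% of all probes were called higher and 24.2% lower in D. In D, 6 of 8 markers of oligodendrocytes and their progenitors were lower (median log2 difference -1.86, against 0.03 over all probes tested), 5 of 6 endothelial and fibroblast markers were higher (median 1.72), 6 of 10 neuronal markers were higher (median 0.38), 3 of 10 astrocyte markers were higher and 5 lower (median -0.30), and 3 of 7 microglial markers were higher and 2 lower. The summed signal of the oligodendrocyte list was 4703 to 16005 in D and 10226 to 154711 in the other series, that of the endothelial and fibroblast list 24371 to 71561 in D and 1113 to 18454 in the others. Gfap, the astrocyte filament, was higher in D by 2.19 (adjusted p = 5.48e-15). In RNA of a whole dish, fewer cells of a type and less RNA per cell cannot be told apart, and the part of these cells in the differences of Clu, Psen2 and App was not tested.

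Time after the procedure was the other axis along which the genes differed. From 0 to 48 h, over all arms and with a term for series, Clu and Psen2 rose and Mapt and Bace1 fell. The 11 arrays at 0 h had Clu levels of 6.91 at the lowest, 7.55 at the median and 8.30 at the highest, and the 11 arrays at 48 h had 7.37, 8.29 and 9.30. These ranges overlap, and within the same series and arm Clu was higher at 48 h in 10 of 10 pairs, by 0.21 to 1.81. In every such pair the 0 h and 48 h arrays lay on different slides. The pairs of this gene and of the genes below therefore also compare slides. The fitted rise was 0.89 (SE 0.15, adjusted p = 3.09e-05 in limma), where 13.6% of all probes were called higher and 13.4% lower. In series B, iTBS arrays read 7.48 at 0 h and 9.30 at 48 h, and 1 Hz arrays 7.21 and 8.62. In series D, sham arrays read 8.12 and 9.14 at these times and iTBS arrays 8.30 and 9.11.

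Psen2 ran from 4.26 to 4.96 with a median of 4.46 at 0 h and from 4.50 to 5.10 with a median of 4.81 at 48 h. It was higher at 48 h in 9 of 10 pairs, and the rise was 0.29 (SE 0.07, adjusted p = 0.00139). The exception was sham in series A, where it read 4.61 at 0 h and 4.50 at 48 h.

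Mapt ran from 9.37 to 10.62 with a median of 9.92 at 0 h and from 8.995 to 9.85 with a median of 9.59 at 48 h. It was lower at 48 h in 8 of 10 pairs and fell by 0.40 (log2 difference -0.40, SE 0.11, adjusted p = 0.00777), and its second probe fell by 0.46 (adjusted p = 0.0145). At 24 h the fall of Mapt was already 0.37 (adjusted p = 0.0291), the only member called at that time, and this call was lost without any of 6 arrays or with the slide as a block. Of all probes at 24 h, 8.59% were called higher and 5.39% lower.

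Bace1 ran from 0.08 to 0.81 with a median of 0.36 at 0 h, and from -2.11 to 0.41 with a median of 0.05 at 48 h. It was lower in 8 of 10 pairs and fell by 0.51 (log2 difference -0.51, SE 0.17, adjusted p = 0.0227). The 2 exceptions were sham pairs, 0.20 at 0 h and 0.41 at 48 h in series A, and 0.083 and 0.084 in series C. Sham arrays of series D read 0.63 at 0 h and 0.05 at 48 h. The lowest array was replicate 1 of 1 Hz at 48 h, without which the difference was -0.36 (adjusted p = 0.0274). The call was lost without replicate 3 of sham at 48 h (adjusted p = 0.0668) or replicate 3 of 1 Hz at 0 h (0.0511).

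**Figure D4:**
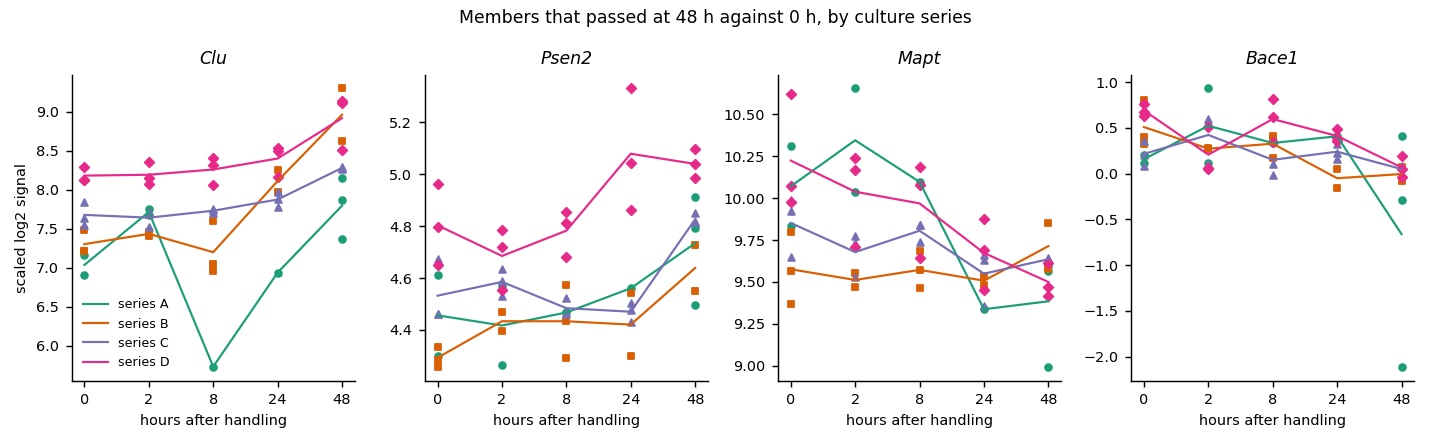
Scaled log2 signal of 4 of the genes against hours after handling (times evenly spaced), with points for arrays and lines through the means of each culture series. Clu and Psen2 end higher at 48 h than at 0 h in all 4 series and Bace1 lower, while Mapt ends lower in A, C and D.

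The other members did not pass at 48 h. App changed by -0.19 on its brighter probe (adjusted p = 0.207), while the second fell by 0.28 (adjusted p = 0.00991). Aplp1 had -0.21 (adjusted p = 0.424). Apoe had 0.36 (adjusted p = 0.148), which passed with levels divided by the 75th percentile (0.36, adjusted p = 0.0451) and after quantile normalization (0.54), and passed without replicate 1 of 1 Hz at 48 h (0.47, adjusted p = 0.0337). With the slide as a block it was 0.12 (adjusted p = 0.846). At 2 h and 8 h, 0 of 7 genes passed before or after adjustment, with 0% and 2.38% of all probes called. In a joint test over the 5 times 3 of 7 genes passed, Clu (adjusted p = 2.42e-05), Psen2 (0.00377) and Mapt (0.0125), where 27.0% of all probes passed. In the sham groups, in a fit without a series term, 0 of 7 passed the joint test of time before or after adjustment, against 0.0785% of all probes, and the same test over all arms passed for 0 of 7 genes without that term, with 3 below 0.05 before adjustment. With the slide as a block, Clu and Psen2 still passed at 48 h, with 0.93 and 0.39 (adjusted p = 0.0173 and 0.0394). In that fit Mapt and Bace1 had differences as large as before, -0.43 and -0.75, but no longer passed (adjusted p = 0.185 and 0.143). Without the term for series, Psen2 had 0.30 and Mapt -0.37, and neither passed (0.0626 and 0.0566).

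Astrocyte markers moved with time in the same direction as Clu. Of 10 markers, 7 were higher at 48 h and 0 lower, with a median log2 difference of 0.59 against -0.04 over all probes tested. Of all probes, 13.6% were called higher and 13.4% lower. The summed signal of the list was 109824 to 349292 at 0 h and 188942 to 795013 at 48 h, and Gfap rose by 1.64 (SE 0.22, adjusted p = 5.55e-07). Of 10 neuronal markers 1 was higher and 3 were lower, of 6 endothelial and fibroblast markers 1 each, and of the microglial and oligodendrocyte markers 0 were called. The part of astrocytes in the rise of Clu was not tested.

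Genes that work beside the 7 members were examined from lists of the pathway, 68 genes outside the members. Under the average of 1 Hz or of iTBS against sham, 0 of 68 passed before or after adjustment. The smallest p belonged to Aplp2, a relative of App, after 1 Hz (log2 difference -0.21) and to the adaptor Apba1 after iTBS (-0.51). Genes named below beyond the 3 largest called changes of a comparison were chosen after their values were seen. Between 0 and 48 h, 16 rose and 7 fell, where 13.6% of all probes were called higher and 13.4% lower. Of 12 genes of apolipoprotein handling, 6 rose and 2 fell (median log2 difference 0.23), among them Nr1h3, the oxysterol receptor LXR alpha, at 1.74 and Apoc1, another apolipoprotein, at 0.72. Nr1h3 levels went from -1.59 ± 1.24 to 0.21 ± 0.85 (n = 11 each), with the probe well above background on 49 of 55 arrays, so that its lowest levels lie near the floor. Abcg1, a cholesterol exporter, fell by 0.26 (log2 difference -0.26).

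The counts of the next lists stand beside 13.6% of all probes called higher and 13.4% lower at 48 h. Of 19 genes of tau and its kinases and phosphatases, 0 rose and 5 fell between 0 and 48 h (median -0.15). They were the microtubule proteins Map2 (-0.64) and Map1b (-0.50), the Cdk5 activator Cdk5r1 (-0.49), the phosphatase subunit Ppp2r2c (-0.55) and the kinase Mark4 (-0.36). Of 10 genes of App processing 2 rose, Bace2 (0.44), the close relative of Bace1, and Psenen (0.34), a subunit of gamma-secretase. Of 12 genes of App adaptors and sorting 4 rose and 0 fell, led by the sorting receptor Sorl1 (0.62). Of 8 genes of amyloid clearance only Ctsb, a lysosomal protease, was called (0.34). Of the 12 genes of a disease list that the study drew up on these same arrays, 3 of them members, 4 rose and 1 fell, which is not independent evidence of a direction. The stress kinase Eif2ak3 had the largest rise in it, 0.68 (adjusted p = 3.66e-05).

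In series D, 19 of the 68 genes were higher and 20 lower, shares near the 28.9% and 24.2% of all probes, so these counts say nothing particular to the pathway. Apod, an apolipoprotein of glia, was lower by 2.54 (log2 difference -2.54), while Nr1h3 was 1.48 higher and Mme, the amyloid-degrading neprilysin, 1.29 higher, with Mme well above background on 24 of 55 arrays only. Of the App processing genes 4 of 10 were lower, Ncstn (-0.36), Bace2 (-0.32), Aph1a (-0.28) and Aph1b (-0.19), of which Ncstn, Aph1a and Aph1b belong to the gamma-secretase of which Psen2, higher in D, is a catalytic part. The adaptor list had 3 higher and 4 lower of 12, the apolipoprotein list 5 and 3 of 12, the tau list 5 and 5 of 19, the clearance list 3 and 3 of 8 and the study's list 5 and 1 of 12. Between C and the pair of A and B, 13 genes were higher and 15 lower, again near the 20.3% and 19.8% of all probes, led by Trem2, a receptor of microglia (-2.02, well above background on 30 of 55 arrays), Apod (1.84) and Nr1h3 (1.57). Between A and B, 16 were higher and 4 lower, against 16.7% and 13.7% of all probes, led by Trem2 (2.00), its signalling partner Tyrobp (1.49) and Apod (-1.10), and none of these 3 passed with the slide as a block.

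The genes whose pattern was most like each member were taken by the correlation of deviations from the series means over the 55 arrays, among 10515 genes. For Clu these were S100a16 (r = 0.90), S100a1 and Gstm1 (0.88 each), for Apoe Cst3 (0.91), Gpx4 and Bcan, for Mapt Crmp1 (0.93), Tuba1c and Tubb5, and for Aplp1 Cnih3 and Atp6v0a1 (0.93 each) and Aplp2 (0.90). For App they were Marchf6 (0.90), Arel1 and Atp1b1, for Bace1 Exoc8 and Sdc3 (0.89 each) and Nsd2, and for Psen2 Plekhd1, Slc16a11 and Eif2ak3 (0.74 each). Bace1 read -2.11 in replicate 1 of 1 Hz at 48 h, where its series A had a mean of -0.01. Its r values were not computed without that array, so they may rest largely on it. All share the same arrays and scaling, and 11 of these 21 genes stayed among the most alike when levels were divided by the 75th percentile.

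Among the members themselves, 14 of 21 pairs had a positive correlation by the same measure, with a median of 0.28, and 12 of 21 with a median of 0.18 when levels were divided by the 75th percentile. The highest was Aplp1 with Mapt (r = 0.72), followed by Apoe with Clu and with Aplp1 (0.56 each) and App with Mapt (0.53, and 0.26 with the 75th percentile). The lowest were Bace1 with Psen2 (-0.44) and with Clu (-0.39), which also include the Bace1 array at -2.11 and were not computed without it. These are descriptions over 55 arrays that share slides and spread.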

How the data were processed

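Gene expression was measured in cultured rat hippocampal neurons, 1 array per sample. Per the labels and file headers, Cy3-labelled RNA was hybridised to Agilent arrays, and the files came from Feature Extraction 12.0.3.1 with annotation of build rn4. The deposited intensity columns hold the scanner's background-corrected signal, and the authors also deposited a value table whose values are a score, the z-score of log2 signal within each array. The z-score was recomputed from the log2 intensity and multiplied by the median array SD, 4.06; it differed from the deposited score by at most 0.00500. Spots of a probe were averaged and the brightest probe stood for a gene. Of the probes, 35688 were tested; 9490 were removed because fewer than 3 arrays had them well above background, and 420 had missing values. Symbols came from accessions through a RefSeq table of GRCr8, for 21109 of 45598 probes. limma 3.58.1 in R 4.3.3 was fitted across all tested probes and tested on simulated data: group means alone for stimulation, group means with a culture series term for time and series, and protocol at each time with a term for each series at each time for comparisons within series. P-values were adjusted by Benjamini-Hochberg over all tested probes and called at an adjusted p of 0.05. Precision is limited by the number of arrays. Per the file headers 1 array had no good grid and was left out. Alternatives were other scalings, background correction, filters, blocks, probes and leaving out arrays; normexp took the median spot signal, since a mean signal was not used here. The members and gene lists were chosen with earlier results of these data known. Genes outside the members were named where they had the largest called changes in a list or comparison, or the smallest p where none was called, and the 3 most alike in pattern for each member. Some results are not reported here.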

Additional observations from a re-analysis of the deposited data

Results flagged for a closer look

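In 4 of 56 groups of 4 arrays tested (7 genes in 8 groups), 1 array stood far from the other 3, where chance flags about 1 in 20 groups. App read 10.24 in replicate 1 of 1 Hz at 8 h, from series A, and 8.99 to 9.17 in the others. Bace1 read -2.11 in replicate 1 of 1 Hz at 48 h, also from series A, and 0.07 to 0.19 in the others. Apoe read 12.91 in replicate 2 of iTBS at 48 h, from series B, and 11.29 to 11.31 in the others. Mapt read 10.62 in replicate 4 of iTBS at 0 h, from series D, and 9.80 to 9.92 in the others. The flagged Bace1 array had the highest 75th percentile of signal, 18416, and the flagged Apoe array had 1999, where the lowest was 1896. Over the 55 arrays, deviations from series means had r = -0.78 with the log2 75th percentile for Apoe. This r was -0.70 for Mapt, -0.59 for Bace1 and -0.52 for App. The part of array brightness in these 4 values was not tested.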

How the results depend on the processing

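Stimulation gave 0 calls of 70 against sham under the other scalings, filters, probe rules and block fits that were run, a replicate block included (0 calls). The same replicate number stands for different series in different groups, so the numbers were not used to pair arrays. Deviations of same-numbered arrays had a mean r of 0.160, against -0.056 for others. For arrays of the same series it was 0.398 against -0.134, and for the same series and time 0.497 against -0.019. Adding back the array with the failed grid gave 5 of 70 calls against sham, 6 of 70 within series and time and 5 of 42 between the protocols. It left 1 of 7 genes in the joint test of series and 1 of 7 in that of time, where 12843 and 2175 of 33107 probes passed, against 26902 and 9636 of 35688 without it. The joint test of series passed for 2 of 7 genes in the sham and untreated arrays alone (16781 of 35688 probes) and for 4 to 6 when 1 array was left out. The joint test of time passed for 1 of 7 with the slide as a block (7373 of 35688 probes) and 0 without a series term (2911), and for 3 in each fit with 1 array left out. The comparison within series and time called 0 to 2 of 70 when 1 array was left out, above 0 for 9 of 55 arrays. The series D difference of App turned to 0.055 with all 56 arrays, and that of Mapt to -0.15 with a replicate block and -0.18 on the mean of its probes. The Clu difference between C and the pair of A and B was 0.064 with a replicate block. Of the single-gene values, 2220 kept their side of the threshold, 88 lost their call, 15 gained it, and 3 called differences changed sign. Differences without a call counted as kept even where their sign changed. That of Aplp2 averaged over times after 1 Hz, for example, ran from -0.21 to 0.11 over the settings other than leaving out arrays. The likeness lists kept 11 of 21 genes with the 75th percentile. Bace1, the dimmest probe, has the least signal over background.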
